A study of Mus musculus with 24 samples.

Results

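Kidneys of mice given berberine before cisplatin were compared, gene by gene, with kidneys of mice given cisplatin alone. The treatment group (TG) and the injury group (IG) had 4 kidneys each. They are 8 of the 12 kidneys of the series that have a list of N6-methyladenosine (m6A) peaks in mRNA. All mice were male C57BL/6 mice aged 8 weeks. TG mice received berberine by intraperitoneal injection at 20 mg/kg daily for 14 days, and IG mice received saline on the same schedule. Both groups then received 20 mg/kg of cisplatin intravenously, and kidneys were collected after 72 h. The 4 control mice, whose kidneys are given beside the 2 groups as a description, received saline and no cisplatin.

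m6A is a methyl mark on adenosine that is written on mRNA by a METTL3 and METTL14 complex, can be erased by FTO and ALKBH5, and is read by YTH domain proteins that act on splicing, translation and decay. Cisplatin is an anticancer drug that enters tubule cells of the kidney, crosslinks DNA and can cause acute kidney injury. Berberine is a plant alkaloid known to act on mitochondria and to activate AMP-activated protein kinase (AMPK). In MeRIP-seq, fragments of mRNA are pulled down with an antibody against m6A, so that a methylated stretch appears as a peak of reads. The lists used here give the position, strand and score of each peak, where the score is the negative log10 of the peak's p-value times 10.

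Peaks were assigned to protein-coding genes by overlap with their exons on the strand given in the list. Of 21866 protein-coding genes in the annotation, 6531 had a peak in some TG or IG kidney (at least 1 of 8) and 2072 had one in all 8. A gene is called listed in a kidney when that kidney's list held at least 1 peak in it. A gene that is not listed can be unmethylated, too little transcribed or below the calling threshold, and these cannot be told apart in the lists, nor can fewer cells of a type and less RNA per cell. Of 8 markers of kidney epithelium, only Slc12a1 and Cubn were listed in any TG or IG kidney, and of 4 liver markers only Ttr was, in 1 IG and 1 TG kidney. Of 5 endothelial markers, Pecam1 and Cdh5 were listed in all 8 kidneys, Flt1 in 2 IG and 1 TG, Emcn in 0 IG and 1 TG kidneys, and the last in none. Of 5 fibroblast and mural markers, Pdgfra and Pdgfrb were listed in all 8 kidneys and Acta2 in 0 IG and 1 TG kidneys. Pdgfra had 4, 2, 4 and 3 peaks in IG and 1, 2, 1 and 2 in TG, which overlap. Of 5 podocyte markers, Nphs1 was listed in 4 IG and 2 TG, Podxl in 2 IG and 4 TG and Synpo in 0 IG and 1 TG kidneys, and of 5 leukocyte markers only Itgam was listed, in 3 IG and 2 TG kidneys. The part of cell types in the results was not tested.

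Fewer peaks and fewer genes were listed in TG than in IG, but the ranges met. The number of peaks assigned to genes was 6442, 6159, 5795 and 6623 in the TG kidneys and 6992, 7310, 8188 and 6600 in the IG kidneys. The highest TG kidney thus lay just above the lowest IG kidney, and the third IG kidney had the longest list of these 8 kidneys. The mean was 6255 ± 361 (SD, n = 4) in TG and 7273 ± 676 in IG, so that the groups differed by -1018 (exact permutation test, two-sided, p = 0.0571, where 0.0286 is the smallest p that 4 against 4 kidneys allow). Listed genes numbered 3758 ± 222 in TG and 4290 ± 241 in IG, a difference of -532 with the same p of 0.0571 in the exact test. Only the fourth IG kidney lay within the TG range of both counts, so leaving it out separates the groups by construction. Without it the exact test gave p = 0.0286 for both differences. With any other kidney left out, the exact test gave p = 0.0571 or 0.0857 for each difference. Control kidneys had 8824 ± 453 assigned peaks in 4877 ± 162 genes. A listed gene carried on average 1.66 ± 0.0282 peaks in TG and 1.69 ± 0.0642 in IG (exact permutation test, p = 0.543). The median score was 69.4 ± 3.81 in TG and 71.2 ± 1.88 in IG (exact permutation test, p = 0.371).

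**Figure D1:**
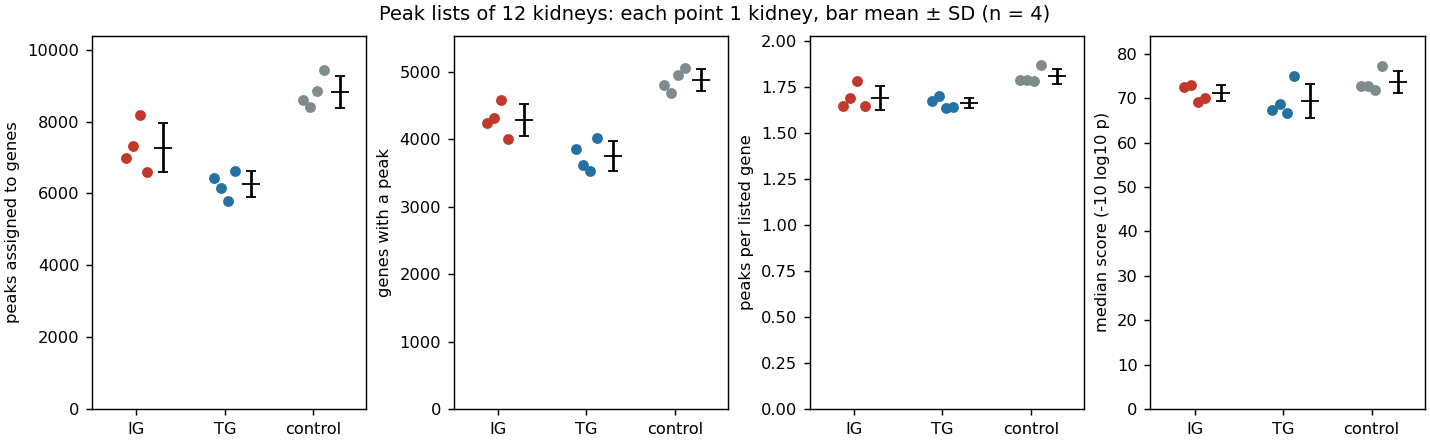
Peaks assigned to genes, genes with a peak, peaks per listed gene and the median score of the list (negative log10 p times 10) in each IG, TG and control kidney, with the mean ± SD (n = 4) beside the points. TG kidneys held 5795 to 6623 assigned peaks and IG kidneys 6600 to 8188, while peaks per gene and the median score overlapped.

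Because the lists differ in length, a gene was first called only when every kidney of one group and no kidney of the other listed it. By this rule 17 genes (0.26% of 6531) were gained in TG and 34 (0.521%) were lost. Among the gained genes were the G protein subunit Gnaz, the annexin Anxa8 and the AMPK-related kinase Nim1k. Among the lost ones were the sodium, potassium and chloride cotransporter Slc12a1, the cadherin-binding catenin Ctnnd1 and the integrin subunit Itgb3. Each such gene had p = 0.0286 by Fisher's exact test (two-sided), and none of the 6531 genes had a Benjamini-Hochberg adjusted p below 1. When each list was shortened to its 5901 highest-scoring peaks, the length of the shortest list, the balance turned to 31 gained and 12 lost genes, of which 8 and 8 were among those called on the full lists. When only scores of at least 69.98 were used, the median of the 8 lists, 12 genes were gained and 18 lost, and 1 and 1 of them were among the first calls. The called genes lay low in their lists, since the median of their mean percentile by score was 16.7 for gained and 24.5 for lost genes, and only 1 gained and 3 lost genes had a mean above 50.

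Stretches around GGACT, a frequent form of the sequence that m6A writers recognise, are given for 5 of these genes whose peak locus held it. Among the highest-ranked gained genes, the loci of Gnaz, Anxa8, Ntm, Ccdc148 and Ak7 held no GGACT. Among the highest-ranked lost genes, those of Slc12a1, Itgb3, Anapc13, Morn4 and Gm10271 held none. Each stretch is 29 bases of GRCm38 on the gene's strand, with GGACT in capitals, at the occurrence nearest to the midpoint of the peak locus. Txndc16 is a gained gene and the other 4 are lost ones.
Txndc16: tgtaaaggaacaGGACTaaattatgccat
Ctnnd1: ttgtttcttaaaGGACTggctttagaagt
Jaml: gagagccacaatGGACTcagcatctgggg
Atg101: cctgggaggtgtGGACTgtcaaggtgcac
Rnf185: gacagccaacttGGACTttatgggccatt
The Txndc16 stretch lies at chr14:45135627-45135655 in the 3′ UTR, in the last of 21 exons. The Ctnnd1 stretch is at chr2:84650417-84650445 in the 5′ UTR of exon 1, and the Jaml stretch at chr9:45107991-45108019 in the 3′ UTR. Atg101 has its stretch in the coding sequence at chr15:101290368-101290396, and Rnf185 in the 3′ UTR at chr11:3416176-3416204. Single loci were called gained or lost by the same rule, also in genes that stayed listed in both groups. Of the 7792 loci at least 200 bp long, 21 were gained and 39 lost. Their central 200 bp held GGACT on the gene's strand in 33.3% of gained, 23.1% of lost and 21.5% of all loci. On the opposite strand the shares were 9.52%, 17.9% and 18.2%. These shares are a description of the listed stretches and do not place a methylated base.

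Of the 10 gained genes that stood highest in their lists, Gnaz, the alpha subunit of a G protein of the inhibitory class, came first. Its highest score was 87.4, 94.2, 128 and 74.8 in the TG kidneys, between the 42.6th and 59.5th percentile of the lists, and it was listed in all 4 control kidneys with scores from 70.9 to 303. The peaks of Gnaz in TG lay in exon 3, over the start of the coding sequence, in all 4 kidneys and in the last exon in 2.

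Anxa8, a calcium-dependent phospholipid-binding protein, had scores of 78.9, 55.5, 51.5 and 89.9 in TG. It was listed in 0 IG and 0 control kidneys, and the locus shared by the 4 TG kidneys was a coding exon of 91 bp, exon 5 of 12. The fourth TG kidney had a second, weaker peak in exon 4. Ntm, a cell adhesion molecule of the IgLON family, had scores of 42.5, 25.0, 42.4 and 35.7 in TG and no peak in the control kidneys. Gabra3, a subunit of the GABA receptor, was also absent from the control lists and had low TG scores, 25.4, 42.9, 26.2 and 13.1, the last close to the lowest score of any list.

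Nim1k, a kinase related to AMPK, had scores of 30.2, 49.6, 18.1 and 41.0 in TG and of 383, 318, 190 and 167 in the control kidneys. Its TG scores were all below its control scores, and it was absent from IG. Ccdc148, a coiled-coil protein, was listed in 4 TG and 4 control kidneys, with TG scores of 64.2, 52.5, 35.2 and 31.4. Txndc16, a thioredoxin domain protein of the endoplasmic reticulum, had TG scores of 16.9, 66.2, 33.8 and 38.6 in the last-exon locus printed above, which 4 control kidneys also held. Ak7, an adenylate kinase of motile cilia, was listed in 4 TG and 3 control kidneys. Gm2974 is counted with caution, since it belongs to a family of near-identical genes whose reads cannot be told apart.

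Ranbp3l, a Ran-binding protein listed here with the distal nephron genes, had scores of 63.8, 16.9, 15.9 and 19.8 in TG, so 3 of its 4 values were near the calling threshold. Its TG peaks lay at different exons, with exon 1 in 3 kidneys and exon 2 in 1, while all 4 control kidneys had the peak in exon 2. With equal list lengths Txndc16, Gabra3 and Ranbp3l were each listed in 3 TG kidneys. The 7 gained genes of lower rank were Ccdc184, Ifi213, Rabl2, Rgs10, Scel, Smc2 and Zfp273. They include the interferon-inducible Ifi213, the G protein regulator Rgs10 and the condensin subunit Smc2.

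Among lost genes Slc12a1, the cotransporter by which the thick ascending limb takes up salt, stood highest. Its direction, like every direction given here, rests on the labels of the lists. The paper reports this gene in the opposite direction, as more methylated in TG than in IG. For Gnaz and Ranbp3l the paper reports the direction given here. The reason for the opposite direction of Slc12a1 was not tested. Its highest score was 262, 635, 786 and 190 in the IG kidneys, between the 66.9th and 88.3rd percentile, and it had no peak in any TG kidney. Among controls it was listed in 1 kidney, with a highest score of 234 in exon 2 and 34.5 in exon 1. The IG kidneys held 1, 2, 4 and 1 peaks in Slc12a1, and the peak that all 4 shared was exon 1, a 5′ UTR exon of 129 bp at chr2:125152505-125152633, which held no GGACT. Slc12a1 stayed lost with equal list lengths and with scores at or above the median.

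Ctnnd1, a catenin that binds the cytoplasmic tail of cadherins and holds them at the membrane, had IG scores of 131, 64.7, 253 and 126. Its only locus was the 5′ UTR stretch printed above, absent from TG and control kidneys. Itgb3, the beta subunit of the vitronectin receptor, had IG scores of 115, 133, 244 and 69.5 in exon 5 of 15, and 0 TG and 0 control kidneys listed it. Jaml, an adhesion molecule of leukocytes and epithelia, had IG scores of 61.8, 43.0, 78.9 and 85.5 in its last exon and was likewise listed in no TG or control kidney. Ctnnd1, Itgb3 and Jaml had 1 peak each in every IG kidney. With scores at or above the median, Ctnnd1 and Itgb3 were left in 3 IG kidneys and Jaml in 2.

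Atg101, a subunit of the kinase complex that starts autophagy, had IG scores of 86.4, 107, 71.8 and 25.9. Rnf185, a ubiquitin ligase of the endoplasmic reticulum, had 19.1, 57.6, 71.0 and 104. Both were listed in 4 control kidneys, Rnf185 with scores of 125 to 184. Senp5, a protease that removes SUMO, had IG scores of 111, 340, 13.3 and 19.3, and Anapc13, a subunit of the anaphase-promoting complex, had 60.9, 84.2, 79.1 and 25.2. Control kidneys listed Senp5 in 3 and Anapc13 in 4 cases.

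Morn4 had IG scores of 218, 58.6, 99.9 and 42.5, but no IG peak had at least 50% of its length on the exons of Morn4. Gm10271, the last of the 10 lost genes named by the rule, had scores of 62.1, 106, 31.6 and 49.1 and is a predicted gene. The other 24 lost genes include the transcription regulators Runx3 and Id4, the deubiquitinase Usp28, the thiamine transporter Slc19a3 and the lysophosphatidic acid receptor Lpar3. Gm21693 and Gm21704 on the Y chromosome are also among them and belong to a family of near-identical copies, so their listing is uncertain.

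**Figure D2:**
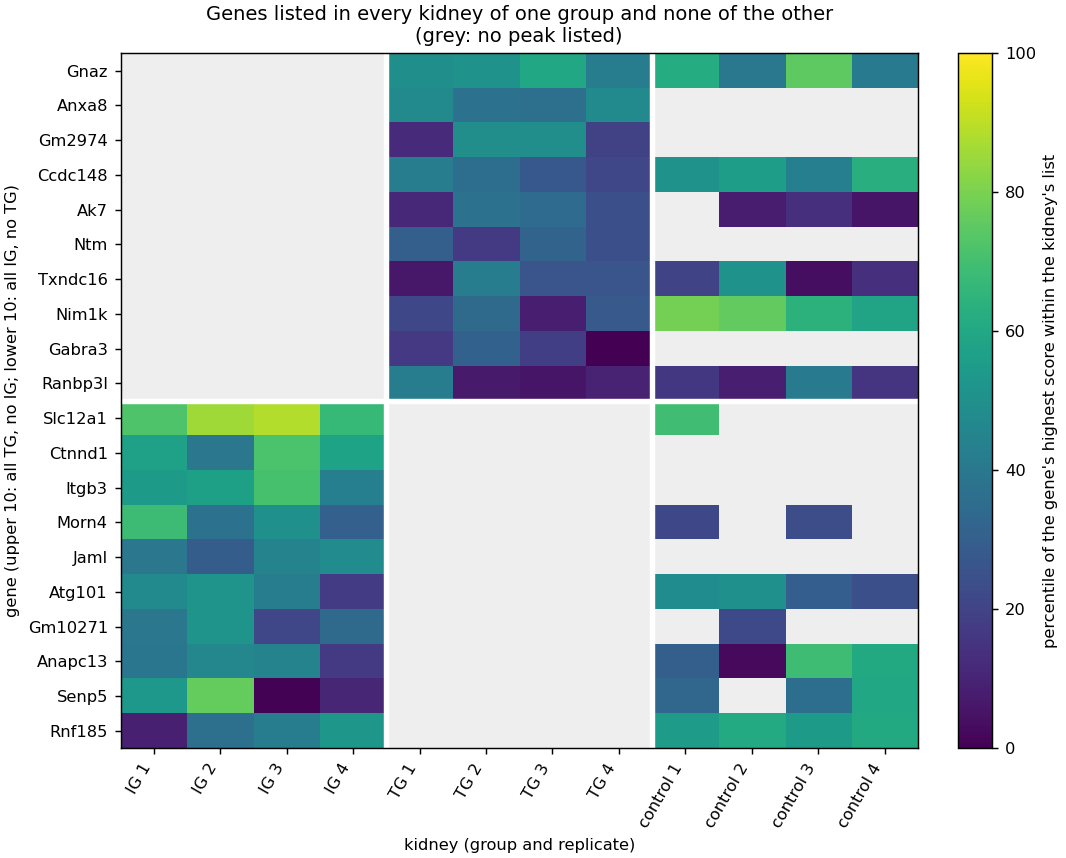
Percentile of the highest score of a gene within each kidney's list (colour, 0 to 100) for the 10 gained and 10 lost genes with the highest mean percentile, with genes in rows and the IG, TG and control kidneys in columns. Slc12a1 was the highest lost gene and Gnaz the highest gained gene, and Anxa8, Ntm, Ctnnd1, Itgb3 and Jaml are grey in all 4 control kidneys.

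A less strict rule asked for a difference of 3 or 4 kidneys. It was met by 77 genes (1.18%) in the direction of TG and 215 (3.29%) in the direction of IG. With equal list lengths the counts were 126 and 122. Genes listed in more TG than IG kidneys made up 17.6% of the 6531 genes, and those listed in more IG kidneys 38.7%. Any group of genes has to be read against these shares.

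Peak numbers per gene gave a second comparison. In 18 genes (0.276%) every TG kidney had more peaks than any IG kidney, and in 58 (0.888%) every TG kidney had fewer. These counts include the gained and lost genes, and with equal list lengths they were 43 and 19. With peaks counted as a share of each list they were 194 and 56, so the balance of more against fewer peaks turned with how list length was treated. Each had p = 0.0286 in the exact permutation test, and the lowest Benjamini-Hochberg adjusted p over the 6531 genes was 1. Among the 2072 genes listed in all 8 kidneys, 19 (0.917%) had fewer peaks in every TG kidney and 0 (0%) had more. Shtn1 and Pou2f1 differed most, by -3.75 and -2 peaks on average. Cbx5, Chd7, Fam208b and Mga followed with -1.5, and Polk, Slk, Urgcp and Uso1 had the same difference. Of these tied genes the first 4 in the order of symbols are described, with Polk as a member of a functional list.

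Shtn1, which links actin flow to cell adhesion in growing axons, carried the most peaks of the 6. It had 10, 9, 9 and 8 peaks in the IG kidneys and 5, 5, 5 and 6 in the TG kidneys, so every TG kidney was at least 2 peaks lower. In the control kidneys it had 7 or 8. The peaks of Shtn1 in exons 5 and 6 of 17 were listed in all 8 kidneys, whereas exon 13 was listed in 4 IG and 1 TG kidneys and exon 12 in 3 IG and 0 TG kidneys. These 2 exons had low mean scores in IG, 25.7 and 23.4.

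Cbx5, Pou2f1 and Fam208b each kept 1 peak in all 8 kidneys and had further peaks in IG that TG mostly lacked. Cbx5 codes for heterochromatin protein 1 alpha and had 2, 2, 3 and 3 peaks in IG and 1 in every TG kidney. Its exon 3 was listed in all 8 kidneys with mean scores of 290 in IG and 236 in TG, and its exon 4 in 4 IG and 0 TG kidneys with a mean IG score of 52.4. Pou2f1, an octamer-binding transcription factor, had 3, 3, 3 and 4 peaks in IG and 1, 2, 1 and 1 in TG, and its exon 8 was listed in 4 IG and 0 TG kidneys at a mean score of 21.4. Fam208b, a relative of a subunit of the HUSH silencing complex, had 2, 2, 3 and 3 against 1 in every TG kidney. Its exon 10 locus was listed in 4 IG, 0 TG and 4 control kidneys, with a mean score of 112 in IG and 53.8 in controls.

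Chd7, an ATP-dependent chromatin remodeller, had 6, 5, 5 and 6 peaks in IG and 4 in each TG and control kidney. Mga, a repressor that pairs with MAX, had 5, 5, 6 and 5 in IG and 4, 4, 3 and 4 in TG, and its locus in exon 2 was listed in 4 IG and 0 TG kidneys at a mean IG score of 37.1. With equal list lengths the groups still did not overlap for Fam208b and Mga, but overlapped for Shtn1, Pou2f1, Cbx5 and Chd7. With scores at or above the median they overlapped for all 6. Polk, a DNA polymerase that copies past lesions and the p53 target with a call, had 3, 2, 3 and 2 peaks in IG and 1 in each TG kidney, while its main peak in exon 13 had mean scores of 485 and 479.

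The stretches of Cbx5 and Fam208b that were lost from TG while another exon of the gene stayed listed held GGACT in the coding sequence.
Cbx5: ggctttgagagaGGACTggaaccagaaaa
Fam208b: gtctgctgctttGGACTtgttggcagagc
The Cbx5 stretch is at chr15:103200852-103200880 and the Fam208b stretch at chr13:3590286-3590314, both on the minus strand. The exon 8 locus of Pou2f1 held no GGACT.

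**Figure D3:**
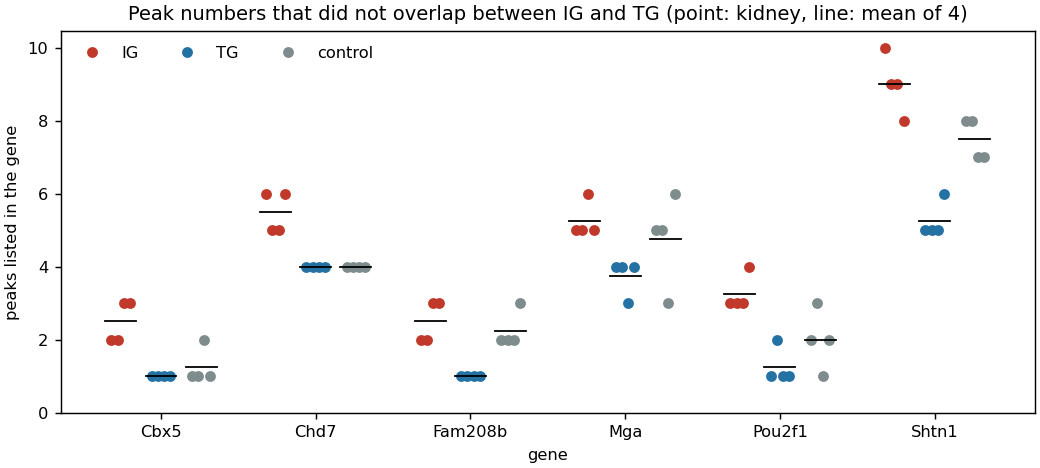
Number of peaks listed in each kidney for 6 genes listed in all 8 kidneys whose numbers did not overlap between IG and TG, for IG, TG and control kidneys, with a line at the mean of 4. Shtn1 had 8 to 10 peaks in IG and 5 or 6 in TG, and Cbx5 and Fam208b had 1 peak in every TG kidney.

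The third comparison used the order of genes within a list. The 2072 genes listed in all 8 kidneys were ranked in each kidney by their highest score, ranks were turned into normal scores (quantiles of a normal distribution with an SD of 1), and limma tested the difference between TG and IG. In TG, 3 genes ranked higher (0.145%) and 0 lower (0%) at a limma adjusted p under 0.05. At an unadjusted p under 0.05, limma gave 113 higher (5.45%) and 88 lower (4.25%). The 3 genes were Lamc1, Arhgap24 and Gm10717, each with an adjusted p of 0.0426 in limma. These calls were fragile. None was made when the first IG kidney, the fourth IG kidney or any 1 of the 4 TG kidneys was left out. Without the third IG kidney only Lamc1 was called (limma adjusted p = 0.0255), and without the second IG kidney Lamc1 was not (limma adjusted p = 0.0953). None was made with percentiles in place of normal scores, with full-list ranks, with the mean score of a gene, or with scores at or above the median, where the lowest adjusted p was 0.0537 in limma. In the exact permutation test per gene, the lowest adjusted p was 0.426.

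Lamc1, the gamma subunit of the laminins that build the basement membrane of tubules and glomeruli, had the largest difference of the 3. Its highest score was 46.8, 75.5, 199 and 65.6 in the IG kidneys and 580, 460, 514 and 906 in the TG kidneys. Each TG value was over that of every IG kidney. Among the 2072 genes, Lamc1 stood at the 21.2 ± 13.0 percentile in IG and the 76.3 ± 4.13 percentile in TG (SD, n = 4), a normal-score difference of 1.57 ± 0.24 (SE). The difference came with 1 locus, the end of the coding sequence and the 3′ UTR in the last of 28 exons at chr1:153219042-153221729. It was listed in 1 IG kidney, with a score of 199, in 4 TG kidneys with a mean of 615 and in 4 control kidneys with a mean of 531. Peaks in exons 25 and 26 of Lamc1 were listed in 4 IG and 3 TG kidneys with mean scores of 51.7 to 72.9. The last-exon locus is shown at its GGACT nearest to the midpoint, at chr1:153220721-153220749 in the 3′ UTR.
Lamc1: tttttataagcaGGACTtaatgcagaaga

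Arhgap24, a GTPase-activating protein of the Rac pathway in podocytes, was near the top of every list. Its score was 1374, 2399, 2405 and 1259 in IG and 3100 in each TG and control kidney. The score 3100 was the commonest value in each of the 8 lists, given to between 77 and 116 peaks, so that genes at this score are tied. The locus was exon 9 of 10, coding sequence, at chr5:102891842-102892919. All 4 TG values of Arhgap24 lay at this tied score, and their percentiles had an SD of 0.234, against 3.49 in IG. The spread within TG is therefore limited by the tie, and the fitted normal-score difference of 0.77 with its SE of 0.11 and its adjusted p in limma is not a measure of how far TG exceeded IG.

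Gm10717 lies near the start of chromosome 9 among annotated genes of near-identical sequence, such as Gm10719, so reads of several copies may be counted in it. It had scores of 427, 431, 166 and 186 in IG and 1559, 1075, 2126 and 2921 in TG, a normal-score difference of 1.40 ± 0.20. Its identity is uncertain.

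The 3 genes next in order did not pass. Auts2, a protein of a variant Polycomb complex, stood at percentiles of 11.9, 39.6, 33.4 and 26.4 in IG and 76.2, 75.3, 85.5 and 67.4 in TG, with an adjusted p of 0.105 in limma. Its last-exon locus was listed in 0 IG, 4 TG and 0 control kidneys, and other exons of Auts2 carried its peaks in IG and controls. Golim4, a Golgi membrane protein, had 8.75 peaks per kidney in both groups and stood at 88.7 ± 1.55 in IG and 95.5 ± 0.886 in TG (limma adjusted p = 0.138). Elfn1, a synaptic membrane protein, had 1 peak in each kidney, with scores of 27.6, 24.9, 28.7 and 54.1 in IG, 366, 160, 86.0 and 127 in TG and 479, 707, 556 and 782 in controls (limma adjusted p = 0.159).

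On the other side, 6 genes had the smallest p for a lower rank in TG, and none passed limma's adjusted threshold. Vcpip1, a deubiquitinase that works with the VCP ATPase in Golgi reassembly, had scores of 848, 926, 856 and 909 in IG and 164.5, 133, 70.2 and 322 in TG, without overlap (limma adjusted p = 0.135). The control kidneys lay between, from 416 to 601. The values come from exon 1, and the other peak listed in all 8 kidneys, in exon 3 of Vcpip1, had mean scores of 195 in IG, 91.3 in TG and 463 in controls.

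Mettl26 had 1 peak per kidney, over its last exons, with scores of 1992, 3100, 2364 and 2924 in IG and 984, 383, 723 and 634 in TG (limma adjusted p = 0.138). It was not listed in any control kidney. Entpd1, the ectonucleotidase CD39 of vessels and leukocytes, had 594, 238, 298 and 547 in IG and 63.2, 27.4, 74.5 and 46.6 in TG (limma adjusted p = 0.138). Pcmtd1, which resembles a protein repair methyltransferase, had 424, 237, 521 and 155 in IG and 20.6, 15.4, 41.6 and 67.7 in TG, and was absent from controls (limma adjusted p = 0.142).

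Cdh2, the cadherin of proximal tubule cells in the mouse, had scores of 132, 81.6, 348 and 119 in IG and 25.6, 28.7, 13.7 and 16.9 in TG, the last 2 close to the threshold (limma adjusted p = 0.142). In control kidneys Cdh2 had 141, 139, 169 and 42.5. AW209491, a predicted protein, had 127, 137, 395 and 296 in IG and 38.4, 35.9, 35.3 and 22.8 in TG, with controls from 259 to 411 (limma adjusted p = 0.142). For all 6 genes the TG scores lay below the IG scores without overlap. The choice by smallest p makes this likely, so it adds no support.

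Sequence from 3 of these loci is shown because they hold the highest-scoring peak of the gene. Arhgap24 and Vcpip1 kept a peak there in all 8 kidneys and Auts2 had one in the TG kidneys.
Arhgap24: ttcccatcccggGGACTatgagaacaaaa
Auts2: cgtgcttcgggaGGACTatgagcacccgc
Vcpip1: atttctacagaaGGACTggggtgatagga
All 3 lie in coding sequence, Arhgap24 at chr5:102892719-102892747 on the plus strand, Auts2 at chr5:131439720-131439748 and Vcpip1 at chr1:9746819-9746847, both on the minus strand. The Mettl26 locus held no GGACT.

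**Figure D4:**
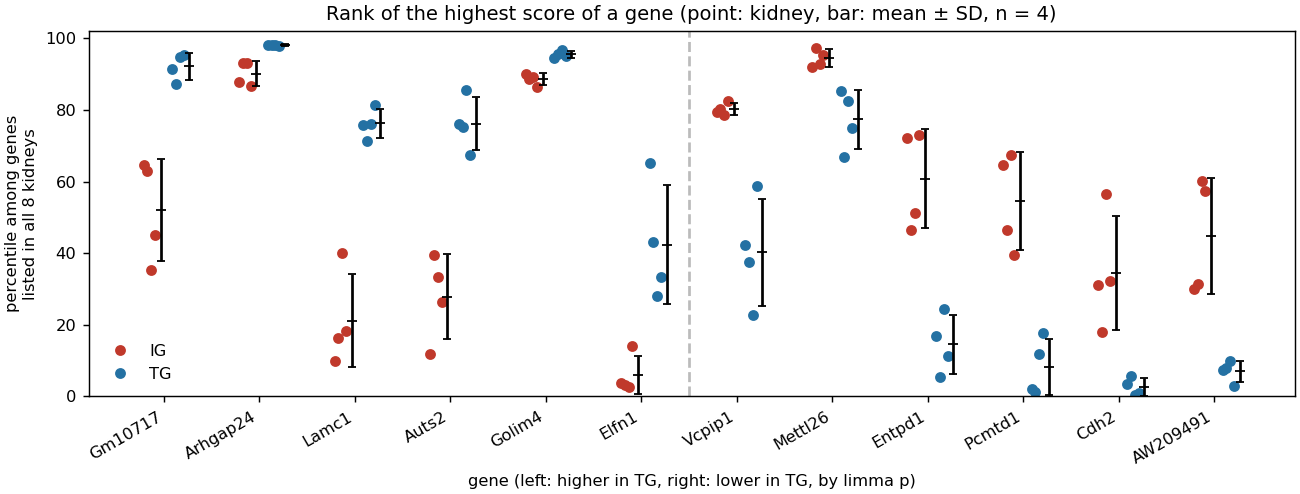
Percentile of the highest score of a gene among the 2072 genes listed in all 8 kidneys, for the 6 genes with the smallest limma p in each direction, with 1 point per kidney and the mean ± SD (n = 4). Lamc1 stood at 21.2 ± 13.0 in IG and 76.3 ± 4.13 in TG, and Cdh2 at 18.0 to 56.4 in IG and 0.265 to 5.72 in TG.

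Groups of genes were then described by function. In 19 of the 20 groups, all but fibrinogen, acute phase and complement, more members were listed in more IG than in more TG kidneys, as over all genes (38.7% against 17.6%). Of 26 listed genes of AMPK, mTOR and insulin signalling, the pathway that berberine is known for, 13 (50%) were listed in more IG kidneys and 1 (3.85%) in more TG kidneys. None had a difference of at least 3 kidneys or passed any of the 3 tests. Mtor and the deacetylase Sirt1 were listed in 2 IG and 0 TG kidneys, Foxo4 likewise, and the kinase subunit Pik3ca in 4 IG and 2 TG kidneys. Of the 8 members listed in all 8 kidneys, 5 ranked higher and 3 lower in TG, with a median normal-score difference of 0.064, against 0.010 over all 2072 genes. Tbc1d1 and the insulin receptor substrate Irs1 had differences of 0.47 and 0.38 (limma adjusted p = 0.800 and 0.717). Foxo1 and a second substrate, Irs2, had differences of -0.58 and -0.54 (limma adjusted p = 0.392 and 0.435).

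Of 30 listed genes of the extracellular matrix, integrins and TGF-beta, 15 (50%) were listed in more IG and 2 (6.67%) in more TG kidneys, and Itgb3 and Lamc1 were called, in opposite directions. The collagen genes Col5a2 and Col18a1 were listed in 3 IG and 1 TG kidneys and Col6a1 in 2 and 0. The integrins Itga3 and Itga5 were listed in 3 IG and 1 TG kidneys, and the TGF-beta mediator Smad4 in 4 and 2.

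In the group of the thick limb, distal tubule and collecting duct, 22 genes were listed, 8 (36.4%) in more IG and 4 (18.2%) in more TG kidneys. It held calls in both directions, Slc12a1 lost and Ranbp3l gained. The magnesium channel Trpm6 and the tight junction gene Cldn19 were listed in 2 IG and 0 TG kidneys, and Trpm7 in 4 and 2. Among 15 genes of proximal tubule endocytosis and transport, 8 were listed in more IG and 6 in more TG kidneys. The sulfate transporter Slc13a1 was listed in 3 IG and 0 TG kidneys, the bicarbonate transporter Slc4a4 in 4 and 2, and the endocytic adaptor Dab2 in 0 and 2.

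DNA damage repair and cisplatin handling had 20 listed genes, 8 in more IG and 2 in more TG kidneys. The copper transporter Atp7a, which can also move cisplatin, and the Fanconi anaemia helicase Fancm were listed in 4 IG and 1 TG kidneys. Brca1 was listed in 4 and 2, and the checkpoint kinase Atr and the polymerase Parp1 in 3 and 1. Of 20 cell death genes, 9 were listed in more IG and 6 in more TG kidneys. The caspase inhibitor Cflar and the death receptor adaptor Fadd were listed in 3 IG and 0 TG kidneys, and Apaf1 and Bid in 3 and 1. No gene of these 2 groups passed a test.

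Of 57 listed chromatin regulators, 46 were listed in equal numbers of kidneys, 8 in more IG and 3 in more TG kidneys, and Chd7 was called for its peak number. The histone deacetylase Hdac4 and the dioxygenase Tet3 were listed in 4 IG and 1 TG kidneys. Among 18 listed genes of the m6A machinery, 10 were equal, 5 were listed in more IG and 3 in more TG kidneys, and none was called. The writer cofactor Rbm15 had a normal-score difference of -0.74 (limma adjusted p = 0.344). The readers Ythdc2 and Igf2bp2 were listed in 0 IG and 2 TG kidneys.

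Of 13 listed genes of fibrinogen, acute phase and complement, 6 (46.2%) were listed in more TG and 4 (30.8%) in more IG kidneys, with no call. Of 23 listed genes of NF-kB, cytokines and interferon, 9 were listed in more IG and 5 in more TG kidneys. The fractalkine receptor Cx3cr1 was listed in 1 IG and 4 TG kidneys and the interferon-inducible Gvin1 in 4 and 1. Of 25 listed genes of Wnt, Notch and Hedgehog signalling, 8 were listed in more IG and 4 in more TG kidneys, with Notch1, Fzd7 and Wnt7b in 2 IG and 0 TG kidneys. Wnt9b, a signal from the ureteric duct to nephron progenitors, was listed in 1 IG, 4 TG and 4 control kidneys. Of 25 listed splicing and RNA-binding genes, 5 were listed in more IG and 3 in more TG kidneys. Prpf38b, a splicing factor, was listed in 0 IG, 3 TG and 4 control kidneys, and Hnrnpd, an RNA-binding protein, in 3 IG, 0 TG and 1 control kidneys.

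Of 17 listed genes of endoplasmic reticulum stress and autophagy, 9 were listed in more IG and 3 in more TG kidneys. Atg5, which conjugates the autophagy membrane, was listed in 1 IG, 4 TG and 4 control kidneys, the chaperone partner Dnajb9 in 3 IG, 0 TG and 4 control kidneys, and the phosphatase subunit Ppp1r15b in 2, 0 and 4. Among 40 ubiquitin ligases and deubiquitinases, 12 were listed in more IG and 5 in more TG kidneys. The ligase Rnf213 was listed in 4 IG and 1 TG kidneys and the deubiquitinase Usp7 in 3 and 0, while the cullin Cul5 was listed in 2 and 4. No gene of these groups passed a test.

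The metabolic and stress groups held no call either. Of 15 listed genes of fatty acid oxidation and the peroxisome, 6 were listed in more IG and 5 in more TG kidneys, with the transporter Abcd2 in 2 IG and 4 TG kidneys, the receptor Ppara in 1 and 3, and the peroxisome factor Pex14 in 2 and 0. Of 8 genes of sterol and lipid uptake and synthesis, 3 were listed in more IG and 0 in more TG kidneys, with the fatty acid synthase Fasn in 2 and 0. Of 9 genes of NRF2 and oxidative stress, 4 were listed in more IG and 1 in more TG kidneys, each by a single kidney. Of 23 AP-1, immediate early and Kruppel-like genes, 11 were listed in more IG and 3 in more TG kidneys, with Klf7 in 4 and 2 and the nuclear receptor Nr4a2 in 3 and 1.

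Of 11 listed p53 targets, 5 were listed in more IG and 2 in more TG kidneys, and the cell death inducer Bbc3 and the metabolic regulator Tigar were listed in 2 IG and 0 TG kidneys. Of 11 genes of tubular injury and repair, 3 were listed in more IG and 1 in more TG kidneys, with Anxa1 in 4 IG, 1 TG and 0 control kidneys.

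**Figure D5:**
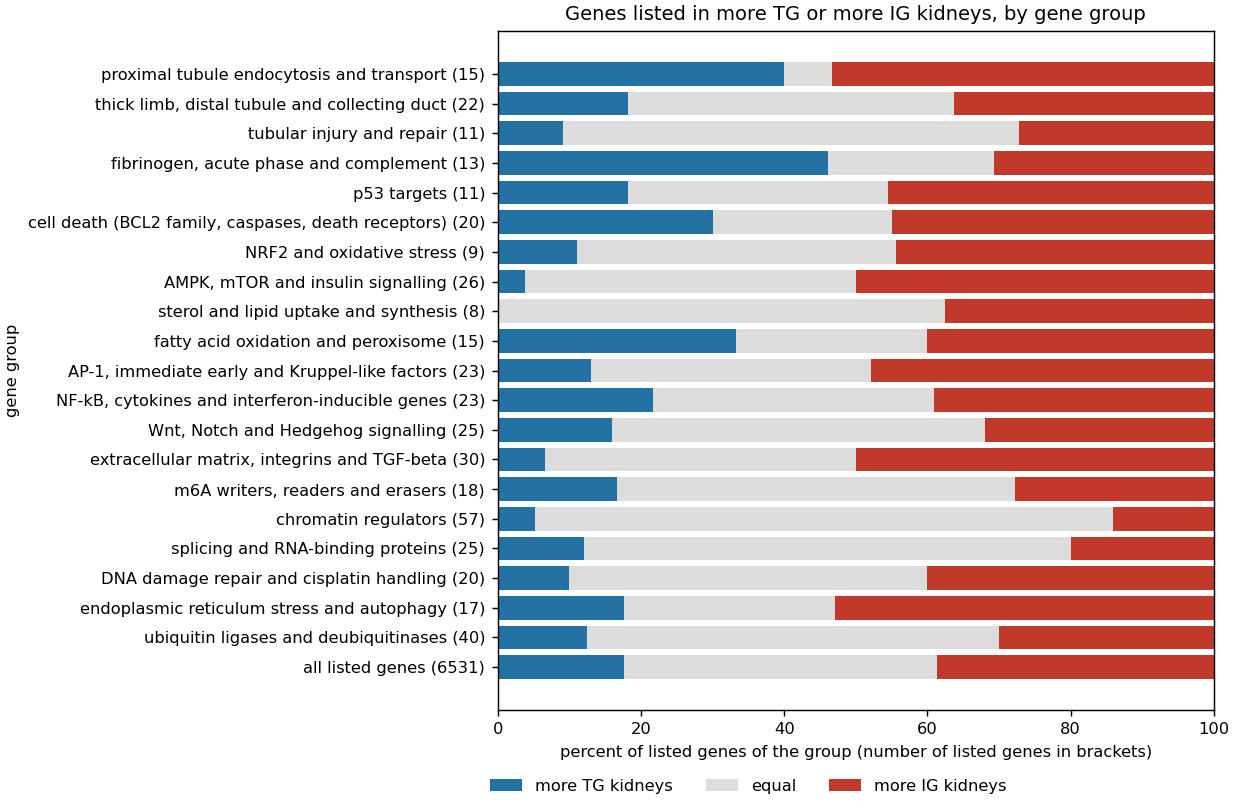
Percent of the listed genes of each functional group that were listed in more TG kidneys, in equal numbers or in more IG kidneys, with the number of listed genes in brackets and all 6531 listed genes in the bottom bar. AMPK, mTOR and insulin signalling had 50% in more IG and 3.85% in more TG kidneys, against 38.7% and 17.6% over all genes.

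Fibrinogen and the tubular injury marker Havcr1 were followed because the study takes them up by name. Fga, the alpha chain of fibrinogen, was listed in 1 IG kidney, the third, with a score of 3100, and in 3 TG kidneys with scores of 1829, 1081 and 32.6. In the 4 control kidneys it had 183, 600, 139 and 19.0. Fgb, the beta chain, was listed in 2 IG kidneys, with 259 in the third and 35.4 in the fourth, and in 0 TG kidneys. Fgg, the gamma chain, had 2746 in the third and 582 in the fourth IG kidney and 126, 293 and 219 in 3 TG kidneys. IG kidneys thus ranged from no peak to the highest scores for Fga and Fgg. Havcr1, the injury marker of the proximal tubule, had scores of 19.6, 142, 3144 and 78.4 in IG and 292, 651 and 319 in 3 TG kidneys, and was not listed in controls. Among the 8 IG and TG kidneys, the third IG kidney had the highest score for Fga, Fgb, Fgg, Havcr1 and Slc12a1, and also the longest list. The part of that kidney's list length in these values was not tested.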

How the data were processed

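The labels gave 4 IG, 4 TG and 4 control kidneys with peak lists. The authors trimmed reads with Cutadapt 1.9.3, aligned them with HISAT2 2.0.4 to mm10, and called peaks with MACS, of which those on mRNA exons were kept. There is 1 list per kidney. The MACS version, threshold and control library are not given in the sources used here. The deposited score is the negative log10 p of a peak times 10. The lists hold no read counts, so depth is unknown and the precision is set by having 4 kidneys in a group. The 12 input samples were not analysed here.

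Peaks were assigned to GENCODE M21 protein-coding transcripts by at least 1 bp on the listed strand. Peaks of the 8 kidneys that overlapped on a strand were joined into loci for counts of loci and the GGACT shares. For the loci and stretches of named genes, overlapping peaks of all 12 kidneys assigned to the gene were joined. Presence was tested with Fisher's exact test, peak number and per-kidney values with the exact permutation test over 70 arrangements, and normal scores of ranks with limma 3.58.1 (trend) in R 4.3.3, with Benjamini-Hochberg adjustment over all genes tested. All tests were two-sided. Tied scores received average ranks. Other tools were pysam 0.24.0, scipy 1.17.1, numpy 2.4.6 and matplotlib 3.10.9 under Python 3.11.15, and the tests were checked on simulated data. The sequences were read from the RefSeq copy of the GRCm38 genome.

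The text names, per direction, the 10 gained or lost genes with the highest mean percentile, 6 genes by the largest non-overlapping difference in peaks (ties by gene symbol), the 6 with the smallest limma p, called members and some of the most changed members of 20 functional lists, and Fga, Fgb, Fgg, Slc12a1 and Havcr1. The rule, the lists and the comparison were chosen with earlier results of these data known. The kidneys came from separate mice. Alternatives were equal list lengths, scores at or above the median, strand ignored, at least 50% of a peak on exons, loci in place of genes, other rank measures, leaving out each kidney and a block for the replicate number.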

Additional observations from a re-analysis of the deposited data

Results flagged for a closer look

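In the TG kidneys Ranbp3l stood at the 42.1 percentile of 1 list, the first, and at 5.76, 7.25 and 9.90 in the other 3, so that 1 kidney lay far from the rest. Elfn1 stood at 14.02 among the 2072 shared genes in the fourth IG kidney and at 3.89, 3.26 and 2.68 in the other 3. Chance alone sets 1 sample apart in this way in about 1 of 20 groups, and both values are for single genes among many.

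Peaks that lay on no exon of a protein-coding transcript were outside all comparisons. They made up 2.01% of the listed peaks in IG (range 1.88 to 2.15%), 1.95% in TG (1.80 to 2.22%) and 1.43% in controls (1.30 to 1.54%). Between 43 and 60 of them per IG or TG kidney lay on exons of pseudogenes and 20 to 33 on exons of noncoding genes.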

How the results depend on the processing

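The counts of called genes depended on how much of each list was used. With equal list lengths 31 genes were gained and 12 lost, and 43 genes had more and 19 fewer peaks (also 43 and 19 when loci were counted). A difference of at least 3 kidneys gave 77 and 215 genes, and 126 and 122 with equal list lengths. With scores at or above the median 18 genes were lost, 26 had fewer peaks and 0 had a higher rank. Of 13078 single loci, 28 were gained and 59 lost. Peaks as a share of the list gave 194 of 6531 genes with more and 56 with fewer peaks. Counts with equal list lengths are out of the genes left in the shortened lists. Ranks in the full list, mean scores, percentiles, genes listed in at least 3 kidneys of each group, loci as features and the exact permutation test per gene each left 0 genes with a higher rank. Sums of scores left 0 higher and 1 lower. At an unadjusted limma p under 0.05 there were 113 higher and 88 lower. The limma call of 3 genes held with equal list lengths and with robust variance shrinkage. Ignoring strand or requiring 50% of a peak on exons changed no count by over 1.5 times. The second alternative with loci, that of 3 kidneys with equal lengths and the unadjusted limma p were chosen after seeing the data.

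Leaving out 1 kidney makes the presence and number rules easier to meet. The ranges were 21 to 27 gained, 51 to 66 lost, 24 to 34 with more and 83 to 129 with fewer peaks, 0 to 3 with a higher rank, -713 to -1242 for the difference in peaks and -432 to -627 for that in genes. The count without a kidney was over 1.5 times that with all 8 for lost genes with every kidney but the third TG one, and for gained genes without the third or the fourth TG kidney (27 each). The same held for genes with fewer peaks without any kidney but the second or the third TG one, and for genes with more peaks without the first or the third IG or the first, the third or the fourth TG kidney.

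The labels do not say whether same-numbered IG and TG kidneys belong together. Their deviations from the group means had correlations of -0.0558, 0.0909, 0.0870 and 0.114. Kidneys of different numbers had correlations from -0.142 to 0.120. Whether same-numbered kidneys share a batch was not tested. With the replicate number as a block, limma called 0 genes (lowest adjusted p 0.228), and the difference in peaks of -1018 and in genes of -532 had p = 0.25 in an exact sign-flip permutation test. Presence and peak number were not tested with the block, because 4 pairs allow no p below 0.125. The lists limit presence to peaks that passed the calling threshold. Of the called genes, only 1 gained and 3 lost ones had a mean percentile by score above 50.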

Other observations

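Further genes differed by at least 3 of 4 kidneys, and those named here were chosen after their values were seen. Listed in 3 TG and 0 IG kidneys were Axl, a receptor tyrosine kinase for dying cells, Siglec1, a macrophage sialic acid receptor, Cgas, the sensor of cytosolic DNA, and Ednra, an endothelin receptor, each also in 0 control kidneys. Listed in 3 IG and 0 TG kidneys, and in 0 control kidneys, were Hilpda, a lipid droplet protein, Sgk3, a kinase of the serum and glucocorticoid family, and the serpins Serpina3c and Serpina3m, which have close paralogs. Kif23, a motor protein of cell division, and the ferritin receptor Scara5 were listed in 4 IG, 1 TG and 0 control kidneys. None of them passed a test. Among the 19 genes listed in all 8 kidneys that had fewer peaks in every TG than in any IG kidney, Rev1, like Polk a DNA polymerase of lesion bypass, was also noticed after its values were seen.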
